A study of Homo sapiens with 24 samples.

Results

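Lysosomal hydrolases, lysosomal membrane proteins, subunits of the vacuolar proton pump and their TFEB family regulators were followed as a list of 42 named genes. The list held 9 cathepsins, 12 other hydrolases, 5 membrane proteins, 13 genes of the proton pump (V-ATPase) and the 3 genes TFEB, TFE3 and MITF. Each gene was represented by the brightest of its probe sets (groups of array probes for 1 transcript) that were annotated to that gene alone, and 40 of the 42 had one, out of 19775 such genes on the array. GLB1 and ATP6V1F share their probe sets with another gene and have no value here. Of the 40, 35 reached log2 4 on at least 3 of the 24 arrays and were tested, among 10661 tested genes. CTSL, CTSZ, GAA, NAGLU and TFEB stayed under log2 4 on every array.

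RNA came from 4 T-cell acute lymphoblastic leukaemia (T-ALL) cell lines. These were TALL-1 with NVS-ZP7-3 and TALL-1 with DMSO, SUPT11 with NVS-ZP7-3 and SUPT11 with DMSO, P12-ICHIKAWA with NVS-ZP7-3 and P12-ICHIKAWA with DMSO, and RPMI-8402 with NVS-ZP7-3 and RPMI-8402 with DMSO, with 3 arrays in each. Treatment lasted 16 h, and the solvent DMSO stood at 0.5% in treated cultures as well. Compounds of the NVS-ZP7 series are known as inhibitors of the zinc transporter ZIP7 (SLC39A7) of the endoplasmic reticulum. The labels give no dose, and they do not say whether the arrays of a group came from separate cultures, so the p-values measure a spread that may be technical. Each line is a single established culture and stands for 1 leukaemia.

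Lysosomes break down proteins, lipids, glycans and nucleic acids with acid hydrolases. The V-ATPase acidifies them: its V1 sector in the cytosol splits ATP, and its V0 sector in the membrane carries protons. TFEB, TFE3 and MITF are related transcription factors that move to the nucleus when the nutrient sensor mTORC1 is inactive or lysosomes are stressed, and bind a motif with the core CACGTG, called CLEAR, near the start of many lysosomal genes.

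Values are deposited log2 signals. The lowest value, 2.18, is shared by many undetected probe sets and is called the floor here. Markers under log2 2.6 are described as at the floor. Some probe sets repeat a higher value, such as CTSD at 3.37 on all SUPT11 DMSO arrays. CTSH stood at 4.21 on all treated SUPT11 arrays and at 2.59 on all TALL-1 DMSO arrays. Such repeated values may be background rather than signal, which was not tested. Changes are log2 differences, NVS-ZP7-3 minus DMSO, with their standard error (SE), and a change is called when the limma p adjusted over all tested genes is below 0.05. T-lineage transcripts from a list of 7 were bright in all groups, with 6 or 7 at log2 4 or more on each array; CD5 was at the floor in TALL-1 with DMSO and CD2 in P12-ICHIKAWA. On 3 arrays, transcripts foreign to their line stood out. The array TALL-1 NVS-ZP7-3 replicate 2 had 21 of 102, and SUPT11 NVS-ZP7-3 replicate 2 had 12 of 65, transcripts that were at the floor in DMSO of the line and very bright in another line. By the same count RPMI-8402 DMSO replicate 3 had 4 of 48. It had blood cell transcripts, with 7 of 13 myeloid markers at log2 4 or more, against 2 and 1 on the other DMSO arrays of the line. The 7 include AIF1, which was bright on all arrays. CD14, S100A12, CSF1R, MPO and ELANE were at the floor. Results that rest on these 3 arrays are given without them as well. The ACTB 3′ to 5′ difference, a measure of RNA integrity that grows as RNA breaks down, was 2.50 in treated TALL-1 and 2.01 in its DMSO arrays, and 2.44 in treated RPMI-8402 and 2.13 in its DMSO arrays. It was 1.37 in treated SUPT11 and 1.32 in its DMSO arrays, and 2.03 in treated P12-ICHIKAWA and 1.99 in its DMSO arrays. With 3 arrays against 3 the exact two-sided permutation p cannot go below 0.1, which it reached in TALL-1 and RPMI-8402.

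The lysosomal genes changed most often in TALL-1 and RPMI-8402, where they moved in both directions. In TALL-1, 12 of the 35 tested genes rose and 6 fell, where 22.3% of all tested genes rose and 19.6% fell (41.9% in either direction). In RPMI-8402, 5 rose and 7 fell, against 15.1% and 21.5% of all tested genes (36.6% in either direction). In P12-ICHIKAWA 2 rose and 2 fell, against 4.91% and 2.98% (7.89% in either direction). No change was called in SUPT11 with limma, where 1.18% of all tested genes rose and 0.582% fell (1.76% in either direction), and 3 genes (CTSD, LIPA and CD63) had an unadjusted p below 0.05, against 8.7% of all tested genes. These shares lie near those of all tested genes except for the rises in TALL-1 (34.3% of the tested members). The median change of the 35 genes was 0.11 in TALL-1, -0.06 in RPMI-8402, -0.03 in P12-ICHIKAWA and 0.00 in SUPT11. The median of all tested genes was -0.0215 in RPMI-8402 and at most 0.0001 from 0 in the other 3 lines. All treated arrays lay above all DMSO arrays for 13 of the 35 genes in TALL-1 and below them for 7, against 25.5% and 23.3% of all tested genes. The same counts were 8 and 8 in RPMI-8402 (20.5% and 28.7%), 3 and 4 in P12-ICHIKAWA (11.9% and 9.5%) and 4 and 3 in SUPT11 (8.79% and 7.77%). In bulk RNA, a change in the number of cells of a kind and a change in RNA per cell cannot be told apart.

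**Figure D1:**
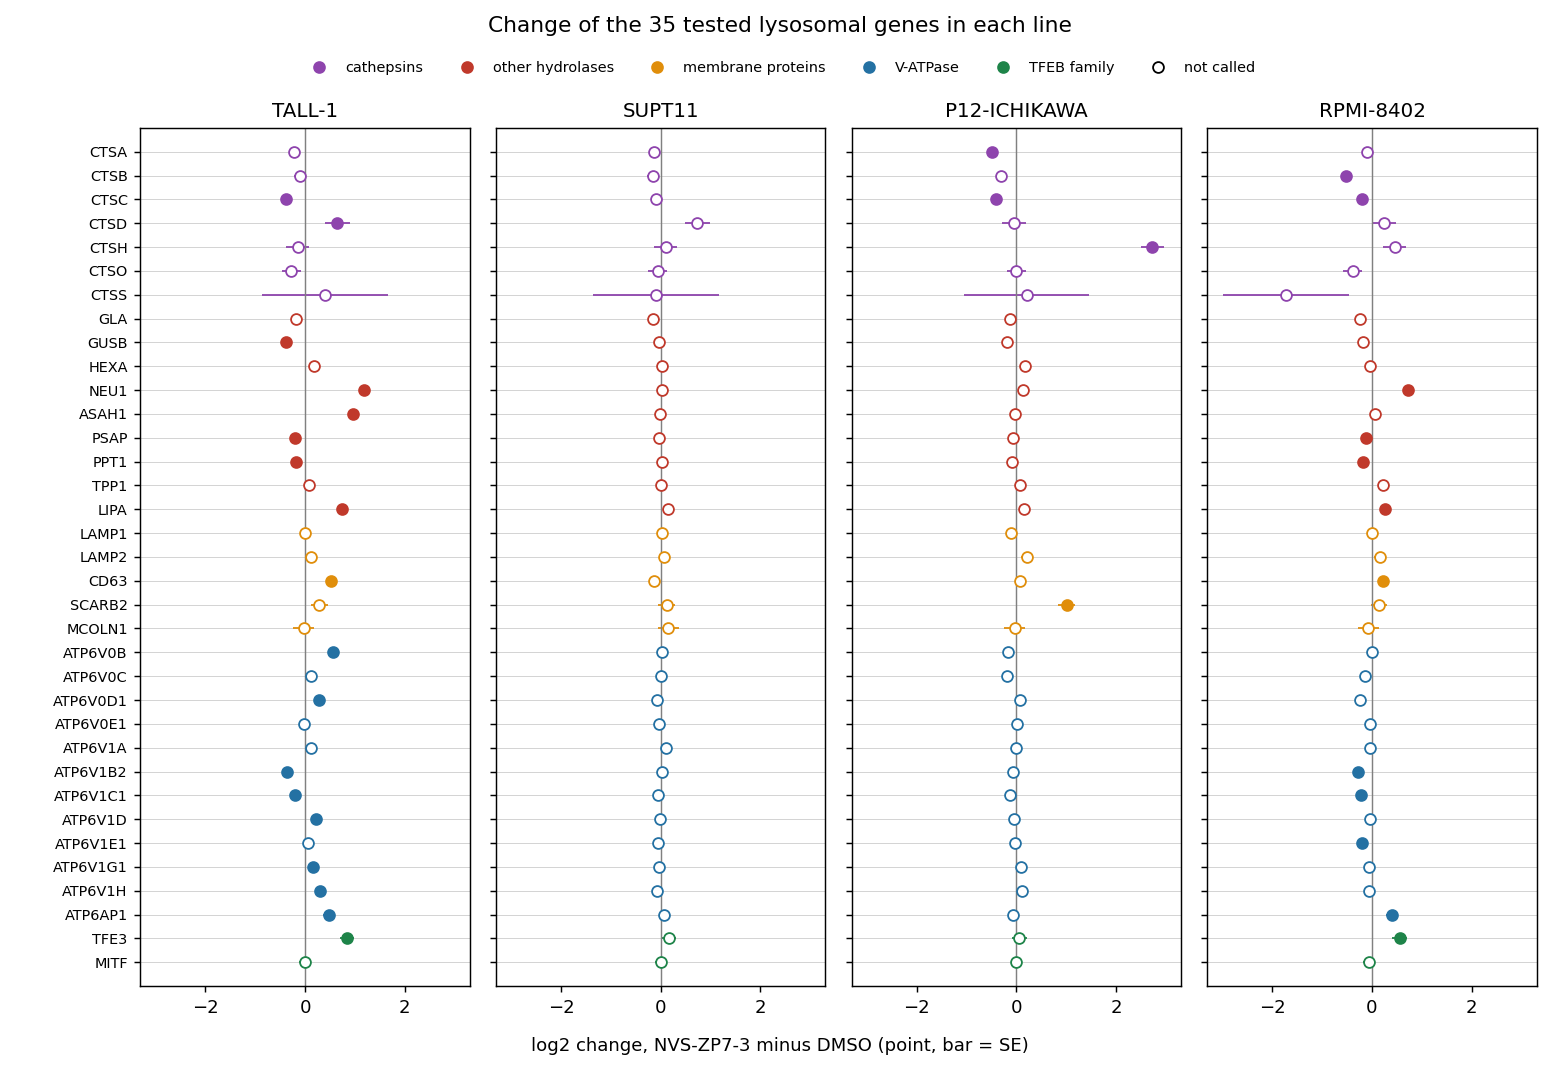
Change of each of the 35 tested genes (down the page, coloured by gene group) in each of the 4 lines; the x axis is the log2 difference, NVS-ZP7-3 minus DMSO, bars are its SE and open points were not called. NEU1, ASAH1, TFE3 and LIPA lie well right of 0 in TALL-1, CTSH reaches 2.73 in P12-ICHIKAWA, and SUPT11 has no filled point.

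The counts depended on single arrays and on scaling. Leaving out RPMI-8402 DMSO replicate 2 lowered the called genes of that line to 7. The shares of all tested genes fell as well, to 13% that rose and 17.5% that fell, against 15.1% and 21.5% with all arrays. Without SUPT11 NVS-ZP7-3 replicate 2, the array with foreign transcripts, CTSD was called in SUPT11, where 1.14% of all tested genes rose and 0.394% fell. After quantile normalization 9 genes rose and 8 fell in TALL-1, and of all tested genes 20.1% rose and 22.4% fell. Without the 3 arrays with foreign transcripts, 11 rose and 6 fell there, against 19.1% and 17.1% of all tested genes. With the ACTB difference as a covariate, 11 rose and 4 fell in TALL-1, against 15.3% and 14.9% of all tested genes, and ATP6AP1 was called in neither line. With HBB as a covariate, 5 rose and 5 fell in RPMI-8402, against 14.7% and 20.3%. In TALL-1, 11 of the 18 calls held under every setting tried (CTSC, GUSB, NEU1, ASAH1, PSAP, LIPA, CD63, ATP6V0B, ATP6V1B2, ATP6V1D and TFE3), and in RPMI-8402 5 of 12 did (CTSB, NEU1, LIPA, ATP6V1B2 and TFE3).

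Of the TFEB family, TFE3 was the member that rose, and it rose in TALL-1 and RPMI-8402. In TALL-1, TFE3 had log2 11.74, 11.69 and 11.58 on the treated arrays, against 10.93, 10.75 and 10.81 on the DMSO arrays. In RPMI-8402, it had 11.27, 11.07 and 11.12 on the treated arrays, against 10.56, 10.46 and 10.77 on the DMSO arrays. The arrays of the 2 treatments did not overlap in either line. The change was 0.84 ± 0.15 (SE) in TALL-1, a 1.79-fold rise (limma adjusted p = 0.000127), and 0.56 ± 0.15 in RPMI-8402, a 1.47-fold rise (limma adjusted p = 0.00559). In SUPT11 it was 0.17 ± 0.15 and in P12-ICHIKAWA 0.06 ± 0.15, neither called (limma adjusted p = 0.981 and 0.946), and the 4 lines differed in this change (interaction, limma adjusted p = 0.0185). A further TFE3 probe set above log2 4 moved by 0.75 in TALL-1 and 0.33 in RPMI-8402.

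MITF was measured above the floor in RPMI-8402 alone, and TFEB nowhere. MITF, better known from melanocytes and osteoclasts, had log2 8.82, 8.27 and 8.08 on the treated RPMI-8402 arrays, against 8.49, 8.33 and 8.56 on its DMSO arrays, which overlap. Its change there was -0.07 ± 0.11 (limma adjusted p = 0.704). Without RPMI-8402 NVS-ZP7-3 replicate 1 it was -0.28 and called (limma adjusted p = 0.00116). In the other 3 lines all arrays stood at 2.18. They add no spread to the estimate that all lines share, so the SE and the call rest on a spread that understates that of the RPMI-8402 arrays. In a fit of RPMI-8402 alone, with all 6 of its arrays, the MITF change was not called (limma adjusted p = 0.86). TFEB lay between 2.18 and 2.51 on all 24 arrays.

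The sequence in front of the start site was read for the letters CACGTG, the core that the TFEB family binds. These letters read the same on both strands. RefSeq windows of GRCh38.p14, from 250 bases before to 50 bases after the start, were given for 29 of the 42 genes, and 10 of these held the letters: ATP6V0B, ATP6V0D1, ATP6V1G1, CD63, CTSA, CTSD, GAA, LAMP1, MCOLN1 and NEU1. They were found in 7.43% of 27305 windows of all genes and in 10.7% of the windows of tested genes. The longer TCACGTG, which contains the core, was in 9 of the 29 and in 3.82% of all windows, and the full CLEAR palindrome of 10 bases, which contains both, was in ATP6V1G1, GAA and MCOLN1 and in 0.38% of all windows. Of the tested genes with the core, 6 of 9 rose in TALL-1 and 0 fell, and of those without it 4 of 14 rose and 3 fell. The rises of ATP6V0D1, ATP6V1G1 and CTSD are among the 6 and were lost under 11, 16 and 12 of 21 settings. After quantile normalization 3 of the 9 rose and 1 fell, and 4 of the 14 rose and 4 fell. In RPMI-8402, 2 of the 9 rose and 0 fell, and 3 of the 14 rose and 3 fell. In P12-ICHIKAWA, 0 of the 9 rose and 1 fell, and 2 of the 14 rose and 1 fell. Over all tested genes with a window, 23.1% of those with the core rose in TALL-1 and 22.7% of those without it, while 23.0% and 19.2% fell. In RPMI-8402, 14.7% of those with the core and 15.2% of those without it rose, while 27.9% and 21.2% fell.

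The 250 bases before the start site of 3 genes that rose in TALL-1 and hold the core are shown first, then those of 2 genes that rose and 1 that fell there without it; capitals mark CACGTG and each line runs 5′ to 3′ toward the gene. The windows are chr6:31862822-31863071 on the minus strand for NEU1, chr1:43974710-43974959 on the plus strand for ATP6V0B, chr12:55729010-55729259 on the minus strand for CD63, chrX:49043358-49043607 on the minus strand for TFE3, chr10:89414680-89414929 on the minus strand for LIPA and chr11:88337737-88337986 on the minus strand for CTSC (RefSeq, GRCh38.p14).
NEU1: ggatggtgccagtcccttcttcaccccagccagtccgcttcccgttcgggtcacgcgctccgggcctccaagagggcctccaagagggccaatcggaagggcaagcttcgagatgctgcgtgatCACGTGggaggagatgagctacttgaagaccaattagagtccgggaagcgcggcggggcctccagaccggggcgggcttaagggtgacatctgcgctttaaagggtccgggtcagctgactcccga
ATP6V0B: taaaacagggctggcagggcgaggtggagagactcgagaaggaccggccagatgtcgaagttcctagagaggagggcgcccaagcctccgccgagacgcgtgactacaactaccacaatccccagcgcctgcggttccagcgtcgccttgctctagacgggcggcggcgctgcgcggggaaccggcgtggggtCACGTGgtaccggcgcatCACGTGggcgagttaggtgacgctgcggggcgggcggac
CD63: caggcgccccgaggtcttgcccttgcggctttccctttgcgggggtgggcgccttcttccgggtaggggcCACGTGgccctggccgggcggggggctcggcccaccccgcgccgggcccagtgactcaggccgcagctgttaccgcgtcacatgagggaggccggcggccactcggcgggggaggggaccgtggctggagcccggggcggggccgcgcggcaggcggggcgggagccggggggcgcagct
TFE3: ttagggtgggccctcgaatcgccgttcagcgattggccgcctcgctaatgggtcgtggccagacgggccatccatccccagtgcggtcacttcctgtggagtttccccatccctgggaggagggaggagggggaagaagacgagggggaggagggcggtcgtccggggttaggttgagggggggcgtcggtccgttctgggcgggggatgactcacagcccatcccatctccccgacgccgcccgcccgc
LIPA: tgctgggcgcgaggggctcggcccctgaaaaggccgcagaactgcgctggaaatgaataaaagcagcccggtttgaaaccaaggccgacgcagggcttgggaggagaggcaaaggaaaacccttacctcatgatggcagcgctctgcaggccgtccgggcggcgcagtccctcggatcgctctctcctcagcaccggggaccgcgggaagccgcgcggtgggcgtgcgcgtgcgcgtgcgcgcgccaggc
CTSC: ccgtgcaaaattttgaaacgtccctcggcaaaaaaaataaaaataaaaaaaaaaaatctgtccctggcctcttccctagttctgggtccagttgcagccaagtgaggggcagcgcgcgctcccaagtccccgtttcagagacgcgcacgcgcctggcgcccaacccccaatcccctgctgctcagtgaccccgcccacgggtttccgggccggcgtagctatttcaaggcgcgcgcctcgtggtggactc
The core starts 126 bases before the start site in NEU1, 57 and 39 bases before it in ATP6V0B and 180 bases before it in CD63. A match of letters is a description of the window and shows no binding.

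Among the hydrolases other than cathepsins, NEU1, ASAH1 and LIPA rose in TALL-1, and NEU1 and LIPA rose in RPMI-8402. Of 12 genes, 9 were tested. In TALL-1, 3 rose and 3 fell, in RPMI-8402 2 rose and 2 fell, and no change was called in SUPT11 or P12-ICHIKAWA. Of all tested genes, 22.3% rose and 19.6% fell in TALL-1, and 15.1% and 21.5% in RPMI-8402. The shares were 4.91% and 2.98% in P12-ICHIKAWA and 1.18% and 0.582% in SUPT11. The 9 genes had a median change of 0.08 in TALL-1 and -0.04 in RPMI-8402.

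NEU1, the sialidase that removes terminal sialic acid from glycans, rose most. It had log2 10.75, 10.73 and 10.76 on the treated TALL-1 arrays, against 9.85, 9.35 and 9.49 on the DMSO arrays, a change of 1.18 ± 0.10 or 2.27-fold (limma adjusted p = 2.29e-08). In RPMI-8402 it had 10.03, 9.92 and 9.98 on the treated arrays, against 9.26, 9.29 and 9.19 on the DMSO arrays, a change of 0.73 ± 0.10 or 1.66-fold (limma adjusted p = 1.29e-05). In both lines every treated array lay above every DMSO array. In SUPT11 the arrays overlapped and the change was 0.03 ± 0.10, and in P12-ICHIKAWA they overlapped with a change of 0.13 ± 0.10 (limma adjusted p = 1 and 0.534). The change of TALL-1 exceeded the mean of the other 3 lines by 0.89 ± 0.12 (limma adjusted p = 1.32e-05).

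LIPA encodes lysosomal acid lipase, which releases cholesterol and fatty acids from esters taken up by the cell. It had log2 14.30, 14.27 and 14.27 on the treated TALL-1 arrays, against 13.51, 13.54 and 13.59 on the DMSO arrays. The change was 0.73 ± 0.05 (limma adjusted p = 4.25e-10), a 1.66-fold rise. In RPMI-8402 it had 13.57, 13.48 and 13.55 on the treated arrays, against 13.26, 13.30 and 13.26 on the DMSO arrays, a change of 0.26 ± 0.05 (limma adjusted p = 0.00019). Treated arrays lay above DMSO arrays without overlap in the other lines too, where the change was 0.15 ± 0.05 in SUPT11 (limma adjusted p = 0.178) and 0.15 ± 0.05 in P12-ICHIKAWA (limma adjusted p = 0.0545).

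ASAH1, acid ceramidase, rose in TALL-1 with no called change in the other lines. It had log2 10.68, 10.73 and 10.72 on the treated arrays of TALL-1, against 9.82, 9.56 and 9.85 on its DMSO arrays, a change of 0.97 ± 0.06 or 1.96-fold (limma adjusted p = 6.49e-10). In treated TALL-1 it stayed below its level in any array of the other lines, where all values lay at 12.07 or more. The change was 0.05 ± 0.06 in RPMI-8402, -0.04 ± 0.06 in P12-ICHIKAWA and -0.01 ± 0.06 in SUPT11 (limma adjusted p = 0.564, 0.882 and 1). The response of TALL-1 differed from the mean of the other lines by 0.96 ± 0.07 (limma adjusted p = 1.57e-08), and 3 further probe sets of the gene moved by 0.91, 0.44 and 2.13 in TALL-1.

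**Figure D2:**
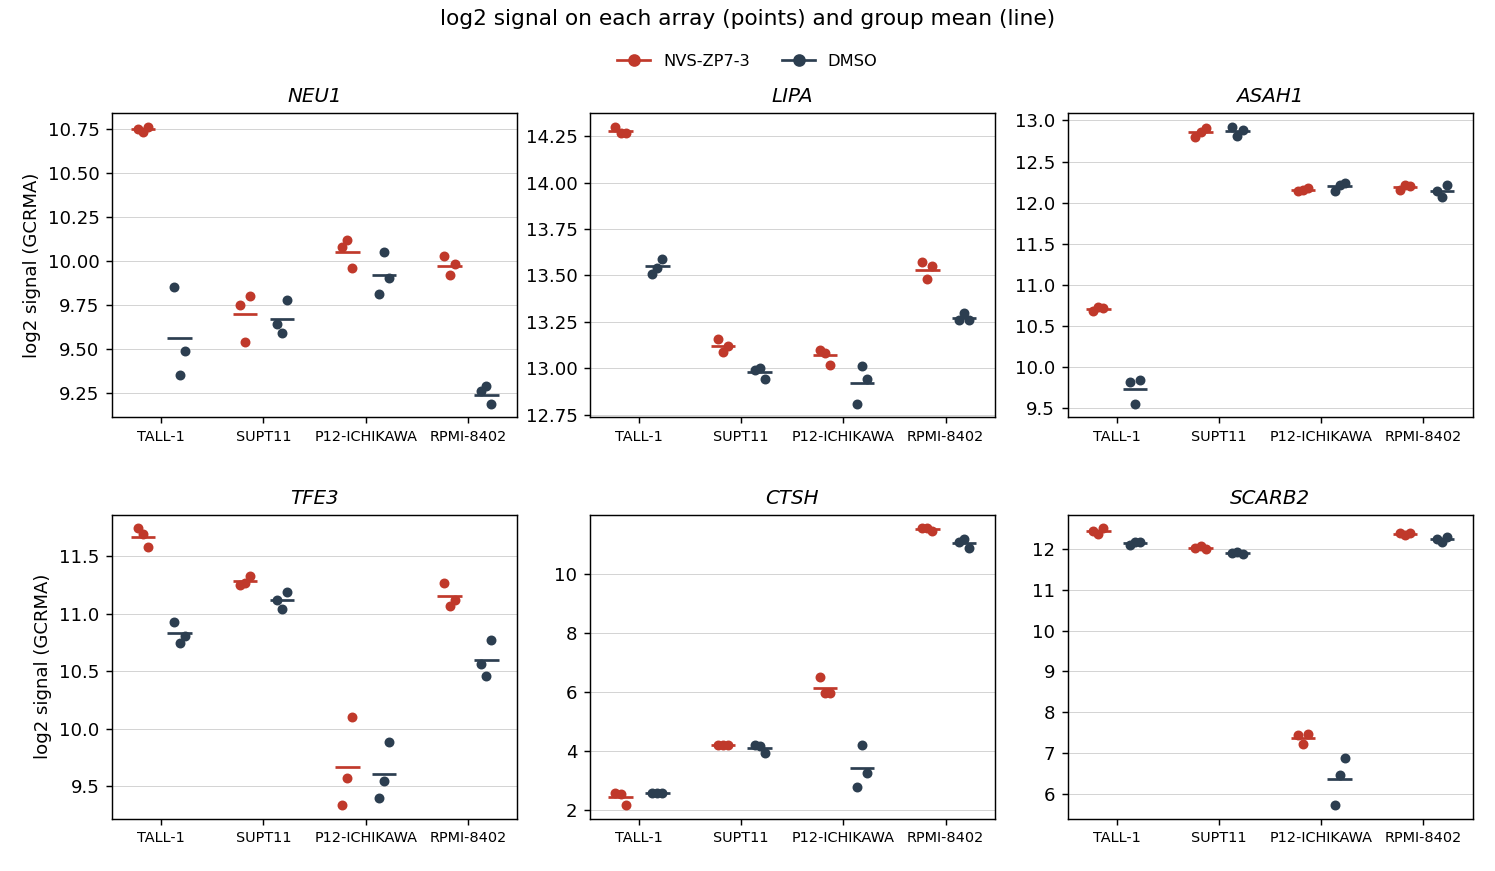
log2 signal (y axis) of NEU1, LIPA, ASAH1, TFE3, CTSH and SCARB2 on each array (points) with group means (lines), by cell line on the x axis with NVS-ZP7-3 left of DMSO. NEU1 lies higher with treatment in TALL-1 (10.73 to 10.76, against 9.35 to 9.85 in DMSO) and RPMI-8402, ASAH1 in TALL-1, and CTSH and SCARB2 in P12-ICHIKAWA.

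In TALL-1 the hydrolases that fell did so by less. GUSB, beta-glucuronidase, had log2 12.69, 12.80 and 12.76 on the treated TALL-1 arrays, against 13.30, 13.06 and 13.04 on its DMSO arrays, with no overlap, and fell by 0.38 ± 0.10 (limma adjusted p = 0.00537). PSAP, the precursor of the saposins that help sphingolipid hydrolases, had 14.37, 14.37 and 14.40 on the treated arrays and 14.58, 14.61 and 14.54 on the DMSO arrays of TALL-1, and fell by 0.20 ± 0.04 (limma adjusted p = 0.00128). In RPMI-8402 it fell by 0.13 ± 0.04 (limma adjusted p = 0.0316), a call lost under 13 of 21 settings. PPT1, which takes palmitate off proteins, fell by 0.17 ± 0.07 in TALL-1 and by 0.19 ± 0.07 in RPMI-8402 (limma adjusted p = 0.0482 and 0.0363). Both PPT1 calls were lost under more than 11 of the 21 settings. In RPMI-8402 PPT1 had 12.79, 12.87 and 12.66 on the treated arrays, against 12.98, 12.97 and 12.94 on the DMSO arrays. GLA, HEXA and TPP1 were called in no line, with changes from -0.24 for GLA in RPMI-8402 to 0.23 for TPP1 in RPMI-8402. Each was called under some other settings. TPP1 was called in RPMI-8402 after quantile normalization and in a fit of that line alone, among others. GLA was called in TALL-1 and RPMI-8402 after median centring, and HEXA in TALL-1 without TALL-1 DMSO replicate 1.

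The cathepsins are the proteases of the lysosome, and 7 of the 9 were tested. In TALL-1 1 rose and 1 fell, in P12-ICHIKAWA 1 rose and 2 fell, in RPMI-8402 2 fell, and in SUPT11 none was called. Of all tested genes, 22.3% rose and 19.6% fell in TALL-1, and 4.91% and 2.98% in P12-ICHIKAWA. The shares were 15.1% and 21.5% in RPMI-8402 and 1.18% and 0.582% in SUPT11. The median change of the tested cathepsins was -0.14 in TALL-1, -0.20 in RPMI-8402, -0.04 in P12-ICHIKAWA and -0.09 in SUPT11.

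CTSC, the dipeptidyl peptidase that activates granule proteases of immune cells, fell in 3 lines. In TALL-1 it had log2 12.08, 11.99 and 11.90 on the treated arrays, against 12.43, 12.22 and 12.44 on the DMSO arrays, and fell by 0.37 ± 0.06 (limma adjusted p = 4.71e-05). In P12-ICHIKAWA it had 11.67, 11.70 and 11.70 on the treated arrays, against 12.06, 12.16 and 12.05 on the DMSO arrays, and fell by 0.40 ± 0.06 (limma adjusted p = 0.000203). In RPMI-8402 it had 11.31, 11.37 and 11.33 on the treated arrays, against 11.49, 11.60 and 11.51 on the DMSO arrays, and fell by 0.20 ± 0.06 (limma adjusted p = 0.0141). None of these pairs of groups overlapped. In SUPT11 the change was -0.09 ± 0.06, and the response of SUPT11 lay 0.23 ± 0.07 above the mean of the other lines (limma adjusted p = 0.0256). The 3 further probe sets of CTSC above log2 4 gave 0.03, -0.36 and -0.18 in TALL-1, -0.29, -0.26 and 0.16 in P12-ICHIKAWA, and -0.27, -0.38 and 0.10 in RPMI-8402, so 1 of the 3 went the other way in each line.

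CTSB, an abundant cysteine protease, fell in RPMI-8402. It had log2 11.58, 11.64 and 11.59 on the treated arrays, against 12.06, 12.04 and 12.25 on the DMSO arrays, with no overlap, and fell by 0.51 ± 0.11 (limma adjusted p = 0.00116). All 5 of its probe sets moved down in that line, by 0.51, 0.56, 0.79, 0.23 and 0.22, the last with a mean of log2 3.18. In the other lines its change was -0.30 in P12-ICHIKAWA, -0.16 in SUPT11 and -0.10 in TALL-1, none called, and the difference between lines was not called (interaction, limma adjusted p = 0.143). In P12-ICHIKAWA the probe sets of mean log2 9.47, 8.23 and 4.75 moved the other way, by 0.309, 0.183 and 0.071, and the dimmest by -0.055. With the mean of all probe sets CTSB was called in TALL-1. CTSA, the protease that also stabilises NEU1 protein, had log2 9.84, 10.10 and 9.81 on the treated P12-ICHIKAWA arrays, against 10.59, 10.39 and 10.21 on the DMSO arrays, and fell by 0.48 ± 0.10 (limma adjusted p = 0.00449). That call was lost with HBB as a covariate (limma adjusted p = 0.068) and in a fit of that line alone (limma adjusted p = 0.175).

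CTSH, a cysteine protease that trims peptides from their amino end, gave the largest rise of any of these genes in any line. In P12-ICHIKAWA it had log2 6.50, 5.98 and 5.96 on the treated arrays, against 2.80, 4.21 and 3.25 on the DMSO arrays, of which 2 lie under log2 4. The other, at 4.21, has the value that CTSH repeats on all treated SUPT11 arrays. The change was 2.73 ± 0.23 (limma adjusted p = 2.24e-07), and since the DMSO arrays lie near the floor its size depends on the background correction. It was 2.59 ± 0.27 above the mean of the other lines (limma adjusted p = 4.03e-06). Treated P12-ICHIKAWA stayed far below the RPMI-8402 level of log2 11.53, 11.53 and 11.43 on treated and 11.08, 11.17 and 10.86 on DMSO arrays, where the groups did not overlap but the change of 0.46 ± 0.23 was not called (limma adjusted p = 0.132). The RPMI-8402 change was called in a fit of that line alone (limma adjusted p = 0.0183) and, at 0.78, with the ACTB difference as a covariate (limma adjusted p = 0.0363). CTSH has 1 probe set. The TALL-1 and SUPT11 arrays, where CTSH repeats values, add little to the estimate of spread that all lines share. In a fit of the 6 P12-ICHIKAWA arrays alone the adjusted p was 0.0599.

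The blood transcripts HBB and LYZ were brighter on all treated than on all DMSO arrays in P12-ICHIKAWA. HBB, a globin of red cells, had log2 11.45, 8.17 and 7.96 on the treated arrays, against 2.18, 2.29 and 2.18 on the DMSO arrays, and LYZ, a lysozyme of myeloid cells, had 8.01, 5.59 and 5.50 on treated and 2.28, 2.95 and 2.99 on DMSO arrays. Among 13 myeloid markers AIF1 was bright on all arrays, and the summed signal of the others above the floor was 3.33 to 5.84 on treated and 0.11 to 0.82 on DMSO arrays, and 11 of the 13 were at the floor on all 6. Over the 4 erythroid markers measured of 7, it was 5.77 to 9.26 on treated and 0.00 to 0.11 on DMSO arrays, with ALAS2, AHSP and CA1 at the floor. With HBB as a covariate the CTSH change was 2.72 (limma adjusted p = 1.11e-05) and with LYZ 2.73 (limma adjusted p = 1.57e-06), both called, and the calls of CTSC and SCARB2 in this line were kept with either. The slope of a covariate is shared by all lines, and both markers separate treated from DMSO arrays in P12-ICHIKAWA. These fits therefore cannot tell whether the changes came with the blood transcripts. HBB was also bright on single arrays of the other lines. It had 7.96, 2.18 and 2.18 on treated TALL-1 arrays and 2.18, 10.61 and 4.58 on treated SUPT11 arrays, against at most 2.32 on the DMSO arrays of both lines. The RPMI-8402 arrays had 10.48, 8.63 and 12.99 on treated and 9.42, 2.32 and 14.65 on DMSO arrays, which overlap.

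CTSD, the main aspartic protease of lysosomes, rose in TALL-1. It had log2 6.52, 6.56 and 6.60 on the treated arrays, against 6.43, 5.33 and 5.98 on the DMSO arrays, a change of 0.65 ± 0.25 (limma adjusted p = 0.0409). The call was lost under 12 of 21 settings, and without TALL-1 DMSO replicate 2 the change was 0.36 (limma adjusted p = 0.257). In SUPT11, CTSD had 4.48, 3.37 and 4.46 on the treated arrays, against 3.37 on each DMSO array, a change of 0.74 that was not called. The repeated 3.37 may be background. The treated array at 3.37 is the one without which CTSD was called in SUPT11. CTSO, a little studied cysteine protease, was called in no line, with changes from -0.38 in RPMI-8402 to 0.00 in P12-ICHIKAWA. It was called in RPMI-8402 without RPMI-8402 NVS-ZP7-3 replicate 3.

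CTSS, a protease of antigen presentation, rested on 1 array in RPMI-8402. It was chosen for description after its values were seen. It had log2 2.20, 2.20 and 4.70 on the treated arrays, against 2.18, 2.26 and 9.81 on the DMSO arrays, where the last value is the array with blood transcripts. The summed signal of the myeloid markers other than AIF1 above the floor was 2.74 to 8.12 on treated and 0.01 to 35.3 on DMSO arrays of this line. On the bright DMSO array LYZ was 12.54, HBB 14.65, S100A8 9.61 and TYROBP 6.64. The change of -1.72 ± 1.26 was not called (limma adjusted p = 0.315), and without that array it was 0.81. Without the pair of RPMI-8402 arrays brightest for LYZ it was -0.02. All lines share 1 estimate of spread for CTSS, to which these arrays add. In TALL-1 CTSS had 9.06, 8.77 and 8.95 on treated and 8.57, 8.50 and 8.51 on DMSO arrays, with no overlap. That change of 0.40 was not called with all arrays (limma adjusted p = 0.892) but was called without the RPMI-8402 pair (limma adjusted p = 0.0138) and in a fit of TALL-1 alone (limma adjusted p = 0.0231).

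**Figure D3:**
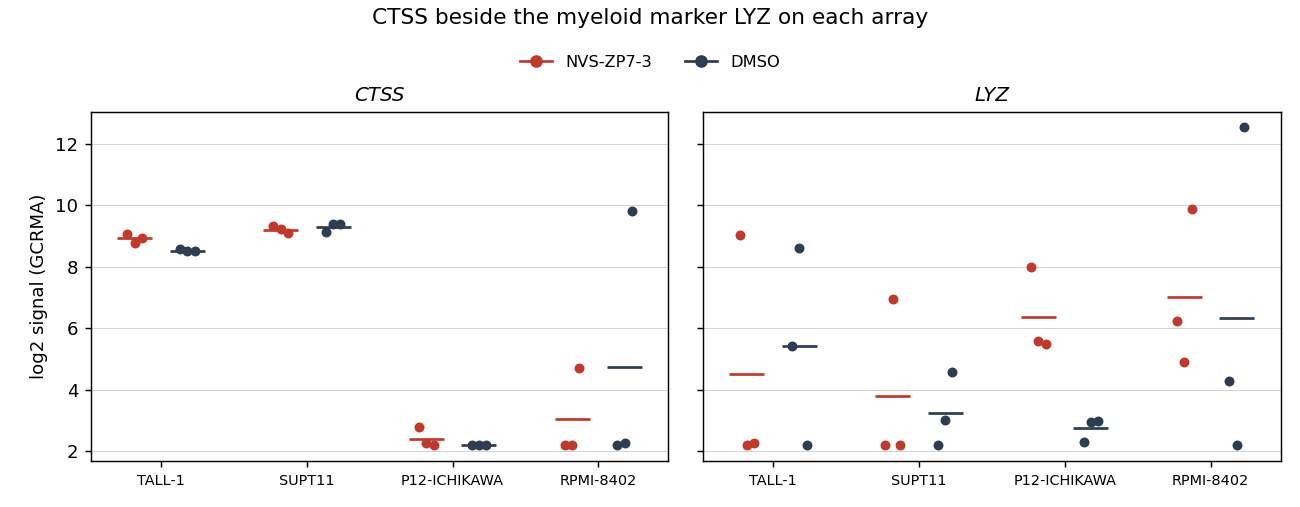
log2 signal (y axis) of CTSS (left panel) and of the myeloid marker LYZ (right panel) on each array, by line on the x axis with NVS-ZP7-3 left of DMSO; lines are group means. In RPMI-8402 the treated array at 4.70 and the DMSO array at 9.81 are the arrays of the line brightest for LYZ, at 9.88 and 12.54, while CTSS lies between 8.50 and 9.40 in TALL-1 DMSO and SUPT11 DMSO arrays.

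Of the 5 membrane proteins, CD63 rose in TALL-1 and RPMI-8402 and SCARB2 rose in P12-ICHIKAWA, and none fell. Of all tested genes, 22.3% rose and 19.6% fell in TALL-1, and 15.1% and 21.5% in RPMI-8402. The shares were 4.91% and 2.98% in P12-ICHIKAWA. CD63, a tetraspanin of late endosomes, had log2 11.47, 11.55 and 11.53 on the treated TALL-1 arrays, against 11.10, 10.88 and 10.99 on its DMSO arrays, a change of 0.53 ± 0.06 (limma adjusted p = 2.29e-06). In RPMI-8402 it had 11.53, 11.48 and 11.48 on the treated arrays, against 11.22, 11.23 and 11.39 on the DMSO arrays, a change of 0.21 ± 0.06 (limma adjusted p = 0.0134). In SUPT11 it had 12.35, 12.27 and 12.31 on the treated arrays and 12.46, 12.44 and 12.45 on the DMSO arrays, and the change of -0.14 was not called (limma adjusted p = 0.541). The response of SUPT11 lay below the mean of the other lines by -0.41 ± 0.07 (limma adjusted p = 0.000891).

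SCARB2, which carries beta-glucocerebrosidase to the lysosome, had log2 7.43, 7.22 and 7.46 on the treated P12-ICHIKAWA arrays, against 5.73, 6.47 and 6.87 on the DMSO arrays. The change was 1.01 ± 0.17 or 2.02-fold (limma adjusted p = 0.000626), and the groups did not overlap. The other probe sets above log2 4 moved by 0.46 and -0.01 in that line, and the call was lost with the mean of all probe sets (0.36, limma adjusted p = 0.0648) and in a fit of that line alone (limma adjusted p = 0.221). The changes of 0.29 in TALL-1, 0.14 in RPMI-8402 and 0.12 in SUPT11 were not called, though treated and DMSO arrays did not overlap in these 3 lines. They were called in TALL-1 and RPMI-8402 when each line was fitted alone (limma adjusted p = 0.00873 and 0.0475) and, at 0.89 and 0.51, with the ACTB difference as a covariate (limma adjusted p = 0.00203 and 0.0177). LAMP1 and LAMP2, the main glycoproteins of the lysosomal membrane, and MCOLN1, its calcium channel, were called in no line, and their changes lay between -0.10 for LAMP1 and 0.21 for LAMP2, both in P12-ICHIKAWA. With the mean of all probe sets LAMP2 was called in RPMI-8402, where its probe sets moved by 0.165, 0.306, 0.158 and 0.321.

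Of 12 tested V-ATPase genes, 6 rose and 2 fell in TALL-1, with a median change of 0.14, where 22.3% and 19.6% of all tested genes rose and fell. In RPMI-8402 1 rose and 3 fell (8.3% and 25.0%), with a median of -0.06, near the 15.1% and 21.5% of all tested genes. None was called in SUPT11 or P12-ICHIKAWA, where the medians were -0.03 and -0.04. Those that rose in TALL-1 were ATP6V0B (0.56) and ATP6V0D1 (0.28) of the membrane sector, ATP6V1D (0.22), ATP6V1G1 (0.17) and ATP6V1H (0.29) of the cytosolic sector, and the accessory subunit ATP6AP1 (0.47). The calls of ATP6V1G1 and ATP6V0D1 were lost under 16 and 11 of 21 settings.

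ATP6V0B, a subunit of the proton-carrying ring, had log2 10.97, 10.97 and 11.02 on the treated TALL-1 arrays, against 10.62, 10.17 and 10.50 on the DMSO arrays. The groups did not overlap, the change was 0.56 ± 0.09 (limma adjusted p = 9.29e-05), and the response of TALL-1 exceeded the mean of the other lines by 0.60 ± 0.11 (limma adjusted p = 0.000363). In RPMI-8402 the change was 0.001 ± 0.09 and in P12-ICHIKAWA -0.16 ± 0.09, neither called. ATP6AP1 had 11.19, 11.17 and 11.03 on the treated TALL-1 arrays, against 10.87, 10.48 and 10.62 on the DMSO arrays, a change of 0.47 ± 0.11 (limma adjusted p = 0.0014). It had 10.70, 10.86 and 10.61 on the treated RPMI-8402 arrays, against 10.27, 10.45 and 10.26 on the DMSO arrays, a change of 0.39 ± 0.11 (limma adjusted p = 0.00664). With the ACTB difference as a covariate the RPMI-8402 change was 0.13 (limma adjusted p = 0.286).

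Subunits B and C of the cytosolic sector fell in the same lines. ATP6V1B2, which holds part of the ATP site, had log2 12.70, 12.70 and 12.65 on the treated TALL-1 arrays, against 12.95, 13.01 and 13.15 on the DMSO arrays, and fell by 0.35 ± 0.05 (limma adjusted p = 1.88e-05). In RPMI-8402 it had 12.60, 12.67 and 12.55 on the treated arrays, against 12.92, 12.91 and 12.86 on the DMSO arrays, and fell by 0.29 ± 0.05 (limma adjusted p = 0.000218). Neither pair overlapped, and the interaction was called (limma adjusted p = 0.00112). ATP6V1C1 fell by 0.20 ± 0.07 in TALL-1, with 10.82, 10.91 and 10.79 on treated and 10.97, 11.08 and 11.06 on DMSO arrays, and by 0.22 ± 0.07 in RPMI-8402, where the arrays overlapped (limma adjusted p = 0.0236 and 0.0137). Its mean over all probe sets moved by -0.06 in TALL-1 and was not called there, while all 4 probe sets moved down in RPMI-8402. ATP6V1E1, of the stalk, fell by 0.19 ± 0.07 in RPMI-8402, with 11.61, 11.61 and 11.66 on treated and 11.78, 11.92 and 11.76 on DMSO arrays (limma adjusted p = 0.0384, lost under 9 of 21 settings). ATP6V0C, ATP6V0E1 and ATP6V1A were called in no line, within -0.18 and 0.12. Each was called under some other settings, such as ATP6V0E1 in RPMI-8402 with the mean of all probe sets.

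Between TALL-1 and RPMI-8402, which share no array, 10 genes were called in the same direction and 0 in opposite directions. NEU1, LIPA, CD63, ATP6AP1 and TFE3 rose in both, and CTSC, PSAP, PPT1, ATP6V1B2 and ATP6V1C1 fell in both. They made up 55.6% of the genes called in TALL-1 and 83.3% of those called in RPMI-8402, where over all tested genes the shares were 45.7% and 52.3%, with 143 genes called in opposite directions. Of the 10, NEU1, LIPA, TFE3 and ATP6V1B2 held in both lines under every setting tried. In RPMI-8402 the calls of PSAP, PPT1, ATP6V1C1, CD63, CTSC and ATP6AP1 were lost under 13, 12, 7, 4, 4 and 1 of 21 settings. The 0 did not hold under every setting either. ATP6V0D1 was called as a rise in TALL-1 and a fall in RPMI-8402 after median centring and without RPMI-8402 DMSO replicate 3. The same was seen without RPMI-8402 NVS-ZP7-3 replicate 3 and without the pair of RPMI-8402 arrays brightest for LYZ. The ACTB difference was larger in treated arrays of both lines. With it as a covariate, PSAP, PPT1, ATP6V1C1 and ATP6AP1 were no longer called in both lines, while SCARB2 and GUSB were called in both. Across the 35 genes the changes of the 2 lines correlated at 0.394 (Pearson), and across all tested genes at 0.404. The first value rests on 1 RPMI-8402 array: without DMSO replicate 3, which carries blood transcripts, the correlations were 0.709 and 0.409, and with all arrays but without CTSS the first was 0.709. Genes are not independent, and both lines share the estimate of spread.

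**Figure D4:**
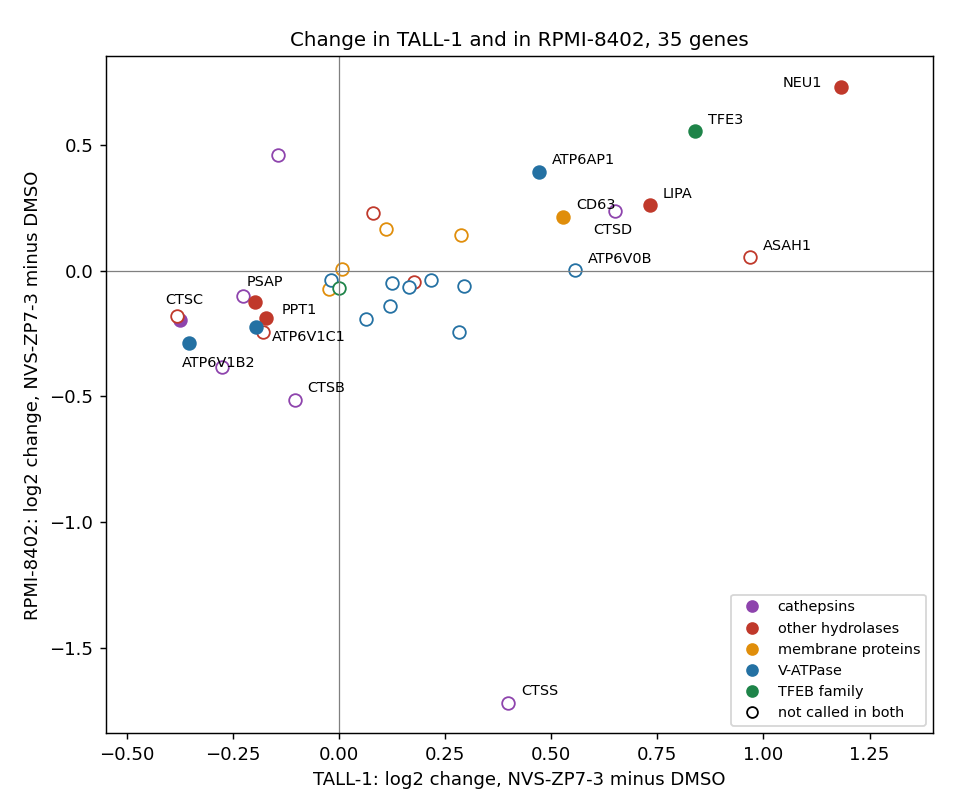
log2 change (NVS-ZP7-3 minus DMSO) in TALL-1 (x axis) against RPMI-8402 (y axis) for the 35 tested genes, coloured by gene group; filled points were called in both lines. The 10 filled points lie in the upper right (NEU1, TFE3, ATP6AP1, LIPA, CD63) and lower left, and CTSS at -1.72 is the value that rests on 1 DMSO array.

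Averaged over the 4 lines, 9 genes rose and 9 fell, where 22.4% and 24.5% of all tested genes did (46.9% in either direction). The largest mean rises were those of CTSH (0.79 ± 0.12), NEU1 (0.52 ± 0.05), TFE3 (0.41 ± 0.07), CTSD (0.40 ± 0.12) and SCARB2 (0.39 ± 0.08), and the largest called mean falls those of CTSB (-0.27 ± 0.06), CTSC (-0.27 ± 0.03) and CTSA (-0.24 ± 0.05), with limma adjusted p from 1.18e-07 for NEU1 to 0.013 for CTSD. These are means of unlike responses: the interaction of line and treatment was called for 15 of the 35 genes, ATP6V0C, ATP6V0D1, ATP6V1D and ATP6V1H among them, against 35.8% of all tested genes. Of all tested genes, 28.6% responded otherwise in TALL-1 than in the mean of the other lines, and the share was 18.5% for RPMI-8402, 15.2% for SUPT11 and 8.38% for P12-ICHIKAWA.

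The lines differed in the DMSO levels of all these genes. All 35 were called as different among the DMSO groups, as were 96.3% of all tested genes, and the median distance between the highest and the lowest line was 0.93. It was 4 or more for CTSH, CTSS, MITF, SCARB2, CTSB and CTSO, and under 1 for 19 genes, most of them V-ATPase subunits and hydrolases. SUPT11 was the highest line for 20 genes and P12-ICHIKAWA for 2.

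RPMI-8402 stood apart by CTSH (11.04 ± 0.16, SD, n = 3), CTSO (6.34 ± 0.20) and MITF (8.46 ± 0.12). For CTSH the next lines were SUPT11 (4.11 ± 0.14) and P12-ICHIKAWA (3.42 ± 0.72), whose arrays overlapped, and TALL-1 (2.59). CTSH repeats the values 4.21 and 2.59 on several arrays of these lines, so these levels may be background. P12-ICHIKAWA had the lowest CTSB (9.30 ± 0.23, against 12.12 ± 0.12 in RPMI-8402, 12.44 ± 0.16 in TALL-1 and 13.74 ± 0.10 in SUPT11) and the lowest SCARB2 (6.36 ± 0.58, against 11.90 to 12.23 in the other lines). TALL-1 had the lowest ASAH1 (9.74 ± 0.16), below RPMI-8402 (12.14 ± 0.07) and P12-ICHIKAWA (12.20 ± 0.05), which overlapped, and SUPT11 (12.87 ± 0.06). CTSS lay at 9.30 ± 0.16 in SUPT11 and 8.53 ± 0.04 in TALL-1, and at the floor in P12-ICHIKAWA.

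**Figure D5:**
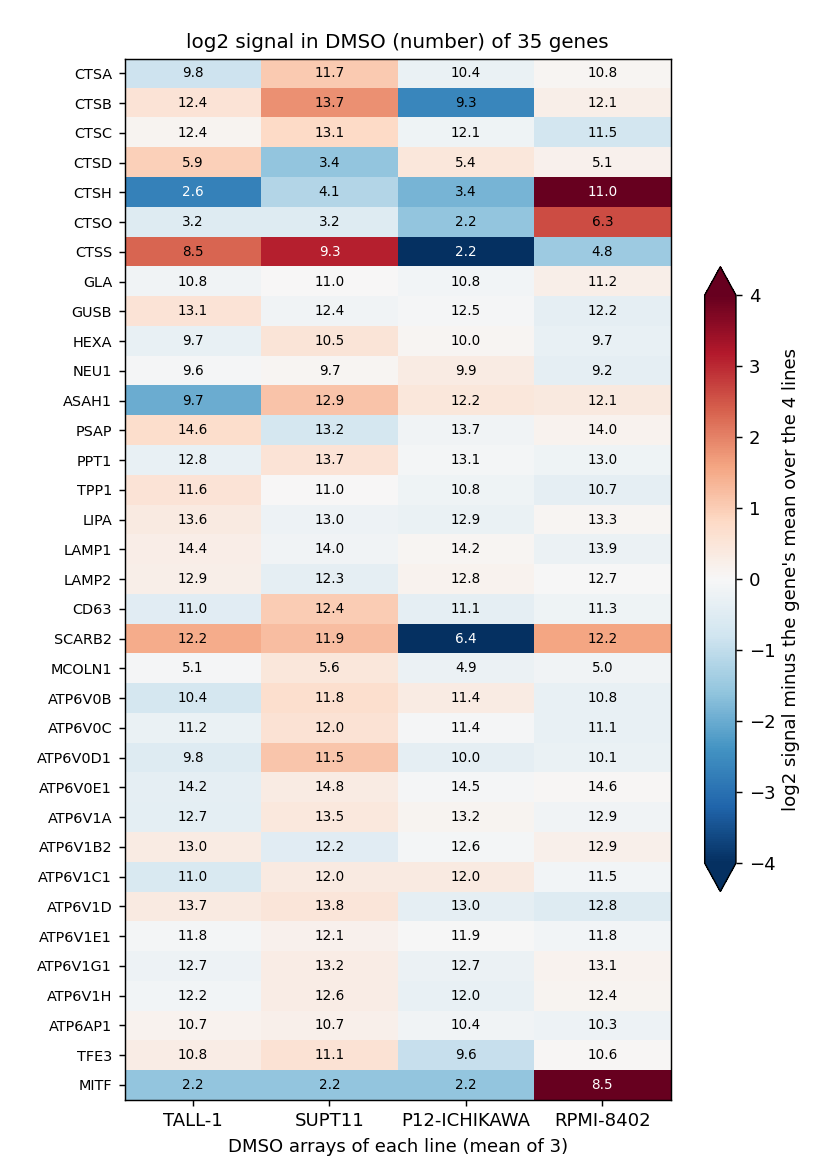
Mean log2 signal of the 3 DMSO arrays of each line (numbers, columns) for the 35 tested genes (rows); colour is the difference from the mean of that gene over the 4 lines, and levels of different rows are not comparable. CTSH, CTSO and MITF are highest in RPMI-8402, CTSB and SCARB2 lowest in P12-ICHIKAWA and ASAH1 lowest in TALL-1; the CTSS value of 4.8 in RPMI-8402 is the mean of 2 arrays at the floor and 1 at 9.81.

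Other lysosomal genes, outside the 42, were read from 5 lists of 86 genes, of which 64 were tested. In TALL-1 26 rose and 6 fell, in RPMI-8402 12 rose and 10 fell, in P12-ICHIKAWA 5 rose and 1 fell, and in SUPT11 0 rose and 1 fell. Of all tested genes, 22.3% rose and 19.6% fell in TALL-1, 15.1% and 21.5% in RPMI-8402, 4.91% and 2.98% in P12-ICHIKAWA and 1.18% and 0.582% in SUPT11. Their median change was 0.21 in TALL-1 and 0.06 in RPMI-8402. In the list of further membrane proteins, 10 of 18 tested rose in TALL-1 and 6 in RPMI-8402, while 0 and 1 fell. Among those that rose most in TALL-1 were 2 transporters. SIDT2 had log2 8.49, 8.50 and 8.14 on the treated TALL-1 arrays, against 6.63, 6.04 and 7.03 on the DMSO arrays, a change of 1.81 ± 0.19 (limma adjusted p = 2.64e-07). SLC17A5, which exports the sialic acid that NEU1 frees, had 10.66, 10.49 and 10.48 on the treated TALL-1 arrays, against 9.28, 8.97 and 9.21 on the DMSO arrays, a change of 1.39 ± 0.10 (limma adjusted p = 3.79e-09), while in RPMI-8402 its rise was 0.56 ± 0.10 (limma adjusted p = 0.000301).

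Most other named genes of these lists lay low. ATP6V1C2, a second form of subunit C, had log2 4.70, 4.02 and 4.91 on the treated RPMI-8402 arrays, against 2.41, 2.30 and 2.18 on the DMSO arrays, a change of 2.25 ± 0.19 (limma adjusted p = 3.22e-08), and it rose by 0.98 ± 0.19 in P12-ICHIKAWA and 0.85 ± 0.19 in TALL-1 (limma adjusted p = 0.00277 and 0.00139). In RPMI-8402 the proteases CTSW and CTSV fell by 2.40 ± 0.47 and 1.46 ± 0.11 (limma adjusted p = 0.000541 and 8.75e-09), with CTSW at 3.24, 2.35 and 3.20 on treated and 3.64, 5.45 and 6.91 on DMSO arrays, the last being the array with blood transcripts. Without that array the CTSW change was -1.61 (limma adjusted p = 0.00108), and in a fit of RPMI-8402 alone it was not called (limma adjusted p = 0.108). SMPD1, acid sphingomyelinase, changed by 1.25 ± 0.49 in TALL-1 with all 6 arrays under log2 4 and lost its call under most settings. CTSK in SUPT11 fell by 0.69 ± 0.13 (limma adjusted p = 0.00629), and in P12-ICHIKAWA CPQ rose by 1.16 ± 0.35 and GNPTG, which tags hydrolases for sorting, fell by 0.43 ± 0.09 (limma adjusted p = 0.047 and 0.00683). The CPQ change was 0.52 without P12-ICHIKAWA DMSO replicate 2 (limma adjusted p = 0.137), and its call was lost under most settings. The GNPTG call was lost with the replicate block, with HBB as a covariate and in a fit of the line alone (limma adjusted p = 0.0594, 0.0982 and 0.0577). Without SUPT11 NVS-ZP7-3 replicate 3 the CTSK change was -0.46 (limma adjusted p = 0.00693). In a fit of SUPT11 alone CTSK was not called (limma adjusted p = 0.339). The ATP6V1C2 call in P12-ICHIKAWA was lost with HBB as a covariate and in a fit of that line alone (limma adjusted p = 0.0512 and 0.0533). In the list of TFEB control at the lysosome, 4 of 11 tested genes rose and 3 fell in TALL-1, and 1 rose and 5 fell in RPMI-8402. Of 22 tested further hydrolases 9 rose and 1 fell in TALL-1, and 3 rose and 3 fell in RPMI-8402. Of 8 tested further V-ATPase genes 3 rose and 1 fell in TALL-1, and 1 rose and 1 fell in RPMI-8402. Of 5 tested sorting genes 0 rose and 1 fell in TALL-1, and 1 rose and 0 fell in RPMI-8402. Beside the counts of these lists, 22.3% of all tested genes rose and 19.6% fell in TALL-1, and 15.1% and 21.5% in RPMI-8402.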

How the data were processed

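The 24 arrays of 4 T-ALL lines with NVS-ZP7-3 or DMSO (3 each) measured mRNA levels. The authors deposited log2 values of 54675 probe sets, and GCRMA and limma are named, without version or order, in the submitters' processing notes. GCRMA corrects background by probe sequence and normalizes between arrays, which leaves many undetected probe sets at a floor of 2.182. Others may repeat a higher value of their own, and changes near either depend on that correction. The values carry no counts, so the number of arrays limits the precision. Probe sets were named by the platform annotation, which can be old: 41097 had 1 gene, 1801 several and 11777 none, and 41043 matched RefSeq (GRCh38.p14). One probe set, the brightest, stood for a gene.

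Genes that reached log2 4 on 3 or more arrays were fitted with limma 3.58.1 in R 4.3.3 (8 group means over all 24 arrays, 16 residual degrees of freedom), with Benjamini-Hochberg adjustment over 10661 genes. Tested were NVS-ZP7-3 against DMSO within a line and averaged over lines, the interaction, a line against the mean of the other 3, and the DMSO groups. The fit was tested on simulated arrays with known changes.

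The members, lists and alternatives were chosen with earlier results of these data known, and lists are described by counts and medians without a set test. Genes were described by array if they were, per line, among the 5 largest rises or falls called without overlap of arrays at log2 6 or more, among the 4 widest ranges with a called interaction, or of the TFEB family, with up to 3 per line, the largest called changes, from other lysosomal lists. CTSS was added after its values were seen. Alternatives were a block for the replicate number, quantile normalization, averaging a gene's probe sets, centring on medians, no or a stricter filter, lines fitted singly, a trend of variance with intensity, a threshold of 0.01, LYZ, HBB or ACTB 3′ to 5′ as covariates, and leaving out arrays; leaving out 3 arrays with foreign transcripts, or the pair of RPMI-8402 arrays brightest for LYZ, was added after seeing the data. Figures were drawn with matplotlib 3.10.9 (Python 3.11.15, pandas 2.3.3).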

Additional observations from a re-analysis of the deposited data

Results flagged for a closer look

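The response to NVS-ZP7-3 differed among the 4 lines for 15 of the 35 genes by the interaction of line and treatment, each value below being the limma adjusted p over all tested genes. Among hydrolases and cathepsins the values were 8.9e-08 for ASAH1, 1.98e-06 for LIPA, 4.7e-06 for CTSH, 8.76e-06 for NEU1 and 0.0163 for CTSC. ASAH1, LIPA and NEU1 rose more in TALL-1 than in the mean of the other lines, and CTSH more in P12-ICHIKAWA. Among membrane proteins they were 0.000108 for CD63 and 0.0154 for SCARB2. For TFE3 it was 0.0185.

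Among V-ATPase genes they were 0.00112 for ATP6V1B2, 0.00168 for ATP6V0B, 0.0061 for ATP6V1D, 0.0207 for ATP6AP1, 0.0237 for ATP6V0C, 0.03 for ATP6V1H and 0.0353 for ATP6V0D1. ATP6V0C was called in no single line: it changed by 0.12 in TALL-1, -0.14 in RPMI-8402, -0.18 in P12-ICHIKAWA and 0.02 in SUPT11. ATP6V0D1 changed by 0.28 in TALL-1 and -0.24 in RPMI-8402, and the RPMI-8402 change was not called (limma adjusted p = 0.0676).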

How the results depend on the processing

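Of 55 changes of single genes, values under settings other than leaving out 1 array kept their direction and side of the threshold in 742 cases, lost the call in 56, gained it in 8 and changed sign in 11; on leaving out 1 array these were 288, 33, 1 and 8. Each change of sign was of a change not called with all arrays, nor at the setting that turned it. CTSS was -0.232 in TALL-1 and -2.137 in P12-ICHIKAWA with HBB, -1.183 in P12-ICHIKAWA with LYZ and 0.114 in SUPT11 with ACTB as covariate, and in RPMI-8402 0.811 without the 3 arrays with foreign transcripts. CTSH in TALL-1 was 0.376 with ACTB. With the mean of probe sets, RPMI-8402 had -0.132 for ASAH1, -0.074 for SCARB2 and 0.122 for MITF, and MITF had 0.139 there without the pair brightest for LYZ. Leaving out 1 array gave, in RPMI-8402, -0.284 to 0.087 for MITF and -3.002 to 0.811 for CTSS (0.811 without DMSO replicate 3), -0.156 to 0.226 for TFE3 in P12-ICHIKAWA, and, in SUPT11, -0.039 to 0.021 for ASAH1 and -0.026 to 0.105 for NEU1. In P12-ICHIKAWA 1 gene was called when each line was fitted alone, against 4. At a threshold of 0.01, 6 genes were called in RPMI-8402, against 12, and 8 for the interaction, against 15. Of all tested genes, 10.9% rose and 14.9% fell in RPMI-8402 at that threshold. Without the 3 arrays with foreign transcripts, 1 gene (CTSD) was called in SUPT11, against 0, while 1.09% of all tested genes rose and 0.338% fell. The cause was not tested. Leaving out 1 array gave 13 to 17 called genes in TALL-1, 7 to 12 in RPMI-8402 (7 without DMSO replicate 2), 4 to 5 in P12-ICHIKAWA, 0 to 1 in SUPT11 (1 without NVS-ZP7-3 replicate 2), 18 to 20 on average, 12 to 16 for the interaction and 34 to 35 among DMSO groups. Of all 10661 tested genes, leaving out 1 array of the line gave 3893 to 4208 calls in TALL-1, against 4471 with all arrays. It gave 3254 to 3610 in RPMI-8402, against 3906, 586 to 776 in P12-ICHIKAWA, against 841, and 158 to 196 in SUPT11, against 188. The full CLEAR palindrome was in 3 promoter windows, against 10 for CACGTG. Of all tested genes, 33 were called in SUPT11 and 220 in P12-ICHIKAWA when each line was fitted alone, against 188 and 841. Of 12 same-numbered pairs of arrays, 2 correlated over 0.1, the highest at 0.424 for P12-ICHIKAWA replicate 3. Of 24 arrays, 11 correlated best with their own number. No chance level was set for these counts, so they do not settle whether replicate numbers pair the arrays. With the replicate number as a block, the calls numbered 14 in TALL-1, 10 in RPMI-8402, 4 in P12-ICHIKAWA and 0 in SUPT11. Over all tested genes they numbered 4192, 3603, 600 and 132. Changes near the floor are limited by signal over background.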
